A study of Mus musculus with 4 samples.

Results

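Neat1 and Malat1 are neighbouring long non-coding RNAs on the minus strand of mouse chromosome 19, and both are retained in the nucleus. The binding of eIF4A2 to them was read from 1 list of enriched intervals (peaks), made from eCLIP libraries of mouse embryonic stem cells. A peak was counted as a member when its midpoint lay on the minus strand of chromosome 19 between 5.824 and 5.846 Mb (Neat1) or between 5.795 and 5.8035 Mb (Malat1), in the mm9 build. Of the 47777 peaks in the list, 25 were members. All 25 lay in Neat1 and 0 in Malat1. The members were chosen by position, for 2 genes picked with the authors' peaks and folds known, so their number and folds are a description and not a test.

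eCLIP uses ultraviolet light to bind proteins covalently to the RNA they contact, pulls down 1 protein and its attached RNA with an antibody (IP), and measures the background in lysate set aside beforehand (input). The cells were the J1 line of strain 129S4/SvJae, crosslinked as living cultures grown without feeders in serum with leukemia inhibitory factor, and neither group carried another treatment or an altered genotype by the labels. The 2 IP libraries were made with an antibody against eIF4A2, and the 2 input libraries came from the same kind of cells without that step. Each peak carries a log2 fold of IP over input calculated by the authors, and no value for a single library, so the spread between replicates, the sequencing depth and the error of any single fold are unknown. No fold in the list was below 2-fold (log2 fold of 1), and weaker or uncalled binding therefore cannot be seen in it.

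As background, Neat1 is made as a short polyadenylated transcript and as a long transcript that starts at the same place and runs on past the short one's polyadenylation site. The long form is the scaffold of paraspeckles, nuclear bodies that hold RNA-binding proteins. Malat1 is an abundant, mostly unspliced RNA found in nuclear speckles, which are stores of splicing factors. eIF4A2 is a DEAD-box RNA helicase and a paralog of the translation initiation factor eIF4A1, and it is best known for its roles on mRNAs in the cytoplasm.

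The comparison below divides Neat1 at the round mm9 position 5.842 Mb, which was not matched to the annotated end of the short transcript. The sequence around that end is given here from the GENCODE M21 transcripts (GRCm38). The lines run 5′ to 3′, and capitals mark the polyadenylation signal AATAAA.
Neat1 short isoform, last 60 bases: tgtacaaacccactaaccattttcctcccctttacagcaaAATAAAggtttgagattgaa
Neat1 long isoform, same place and 60 bases on: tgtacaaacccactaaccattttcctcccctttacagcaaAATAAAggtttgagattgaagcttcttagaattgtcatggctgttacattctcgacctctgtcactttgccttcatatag
The signal ended 14 bases before the end of the short transcript. AATAAA was present in the last 60 bases of 31.1% of the 9100 GENCODE lincRNA transcripts of at least that length, and its reverse complement TTTATT in 4.52%; the Neat1 end held the former and not the latter. The annotated short transcript was 3004 bases long in 2 exons, and both exons were found letter for letter in the long transcript of 20771 bases. Up to the end of the short isoform, the long one holds 3172 bases (15.3% of its length), of which 166 are spliced out between the 2 exons of the annotated short transcript. The 17599 bases (84.7%) past that end are in the long isoform and not in the short one. A peak in the exons that both hold does not show which isoform was bound. GC content was 51.3% in the long isoform up to the short one's end, 46.5% past it and 42.5% in the 6983 bases of Malat1. Peaks were not placed on these sequences, because the list is in mm9.

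All 25 Neat1 peaks lay in the 5′ part of the gene, above 5.842 Mb, the part taken for the short isoform. That part of the window is 4 kb long, more than the 3172 bases up to the short isoform's end, and held 6.25 peaks per kb. The remaining 18 kb of the window, taken as the rest of the long isoform, held 0 peaks on either strand. No fold can therefore be given for the rest of the long isoform, and neither a ratio of peak densities nor a difference in enrichment between the 2 parts can be calculated. The 3′-most peak began 391 bases inside the boundary, and the 5′-most peak ended 1177 bases before the 5′ edge of the window. How far the boundary lies from the end of the short isoform is not known here. The list does not give the level of either isoform, so fewer reads over the long part and weaker binding there cannot be told apart.

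**Figure D1:**
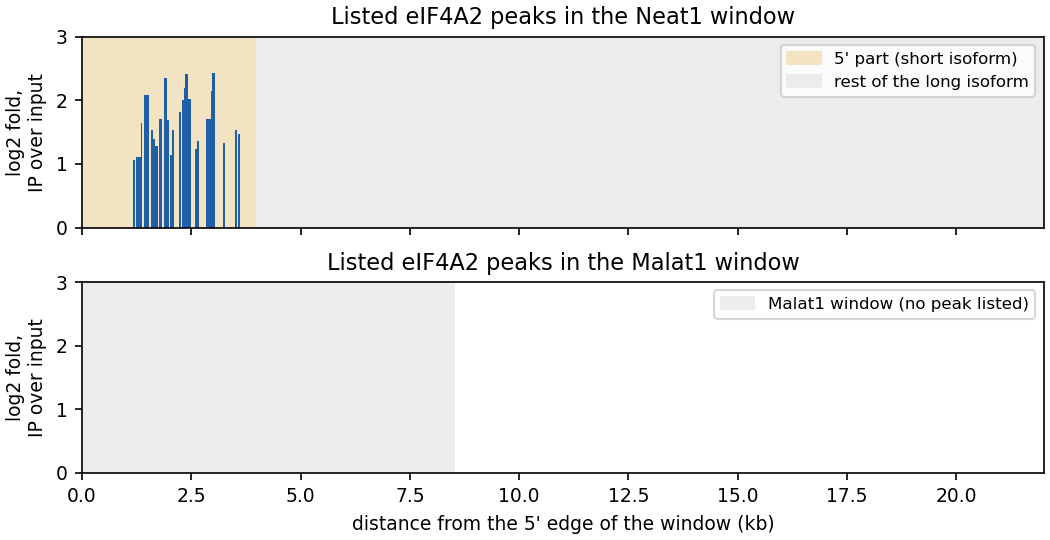
Peaks in the Neat1 window (upper) and the Malat1 window (lower), drawn by distance in kb from the 5′ edge of each window; bar height is the authors' log2 fold of IP over input. The 25 Neat1 bars stand in the shaded 4 kb of the 5′ part, and the other 18 kb of Neat1 and the 8.5 kb of Malat1 have none.

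Malat1 had no listed peak in its 8.5 kb window, on the minus or the plus strand. The 20.5 kb between Malat1 and Neat1 and the 20 kb beyond the 3′ side of Malat1 were also without a peak on either strand. From the 3′-most Neat1 peak, the nearest peak in the direction of Malat1 was 86.8 kb away. It lay at 5755562 to 5755587 on the plus strand, and its log2 fold was 1.65. Of 1313 gaps between successive peaks of chromosome 19, counting both strands, 120 were at least as long, so a gap of this length was not rare on this chromosome. Because the list starts at 2-fold, the absence of Malat1 from it does not show that Malat1 was unbound. The read coverage of Malat1 was not analysed here.

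On the other side, beyond the 5′ end of Neat1, peaks were sparse and did not continue the dense run. The first, 5.7 kb away, was at 5850566 to 5850575 on the plus strand (log2 fold 1.82). The minus strand held 4 peaks in the 20 kb beyond the Neat1 window (0.2 per kb), with log2 folds of 1.06 to 2.9. The highest of these was at 5861002 to 5861059, 16.2 kb from the 5′-most Neat1 peak.

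The Neat1 peaks were moderately enriched, close to the rest of the list. Their log2 folds ran from 1.06 (2.08-fold) to 2.43 (5.4-fold), with a median of 1.65 and an interquartile range of 1.36 to 2.02. The median of the whole list was also 1.65, with an interquartile range of 1.29 to 2.07, and that of the 623 peaks on the minus strand of chromosome 19 was 1.65. In Neat1, 8 peaks were at 4-fold or more (log2 fold of 2), or 32% (Wilson 95% interval 17.2 to 51.6%, which covers counting over peaks only), beside 28.3% of the list. At 8-fold or more (log2 fold of 3) there were 0 of the 25, beside 4.03% of all listed peaks. With peaks as listed, both shares were near the background, so the enrichment of single listed peaks did not set Neat1 apart. Among peaks of at least 20 bases the 4-fold share was 38.1%, beside 28.7% of the list. With peaks within 50 bases merged and the highest fold kept, it was 50% of 8 Neat1 regions, beside 29.1% of the merged list. Keeping the highest fold can only raise the value of a joined region. Touching peaks, which merging joins, were commoner in Neat1 (60%) than in the list (6.79%), so these 2 merged shares are not a like comparison. These folds are of peaks beyond 2-fold only and were not tested.

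**Figure D2:**
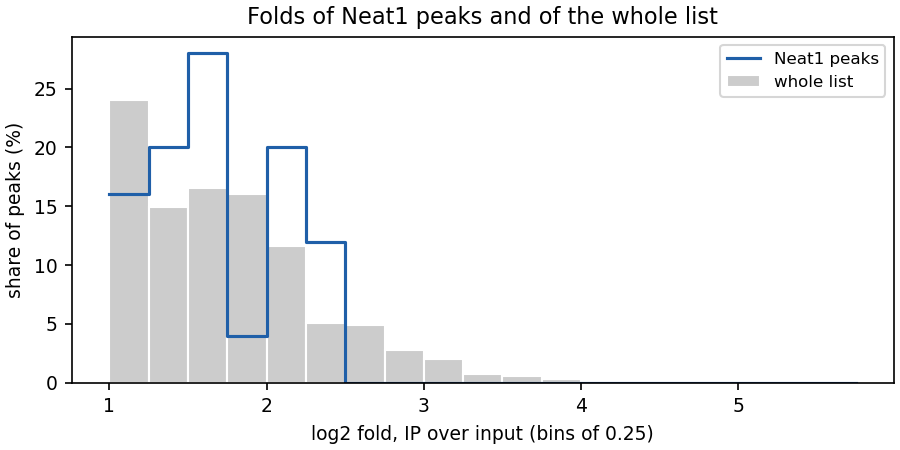
Share of peaks (%) in bins of 0.25 of the log2 fold of IP over input, for the 25 Neat1 peaks (line) and the 47777 peaks of the list (bars). The Neat1 peaks end at 2.43, whereas the list runs to 5.63.

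Along the RNA, the peaks at 4-fold or more lay away from both ends of the bound part, with weaker peaks among them and at the ends. The 8 peaks at 4-fold or more all lay between 5842966 and 5844575, a span of 1610 bases. The 3 highest were at 5842966 to 5843024 (log2 fold 2.43, 59 bases wide), at 5843583 to 5843636 (2.42, 54 bases) and at 5844062 to 5844114 (2.35, 53 bases). Weak peaks lay within the same 1610 bases, such as those at 5844252 to 5844321 (log2 fold 1.29), 5843937 to 5843991 (1.14) and 5843369 to 5843422 (1.23). None of the 3 highest touched another of them, and they lay in different stretches of the bound part.

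At the 5′ end, the 5′-most peak, at 5844805 to 5844823, had the lowest fold of all, a log2 fold of 1.06. It was followed by a pair at 5844621 to 5844756 with log2 folds of 1.11 and 1.65. The next, at 5844463 to 5844575, was the widest Neat1 peak (113 bases) and had a log2 fold of 2.08. The rise from the lowest fold to beyond 4-fold thus took place over the first 4 peaks. At the 3′ end the last 3 peaks were all below the list's median. These had log2 folds of 1.33 at 5842737 to 5842784, 1.53 at 5842475 to 5842477 and 1.47 at 5842391 to 5842422.

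Cut into 3 equal segments of 811 bases, the bound part was most covered at its 5′ side. The 5′ segment held 10 peaks that covered 70% of its bases, with a median log2 fold of 1.59. The middle segment held 9 peaks over 52.8%, with a median of 1.82 and 4 peaks at 4-fold or more. The 3′ segment held 6 peaks over 33.5%, with a median of 1.62. Coverage by peaks thus went down from the 5′ to the 3′ segment, while the medians differed by less than the range within any segment (1.06 to 2.35, 1.14 to 2.42 and 1.33 to 2.43). The 2 outer segments had 2 peaks each at 4-fold or more.

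**Figure D3:**
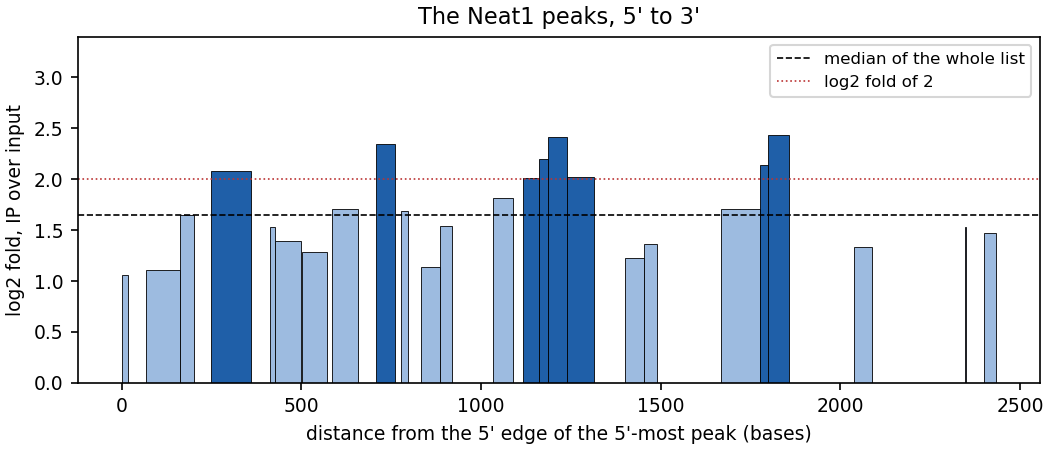
The 25 Neat1 peaks from 5′ to 3′, by distance in bases from the 5′ edge of the 5′-most peak; bar width is the width of the peak and bar height its log2 fold of IP over input. Dark bars are the 8 peaks at a log2 fold of 2 or more (dotted line), and the dashed line is the list's median of 1.65.

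Many Neat1 peaks touched their neighbours end to end. This was so for 15 of the 25 (60%), beside 6.79% of the list, and they formed 6 unbroken blocks, 4 of them pairs. The remaining 10 peaks stood alone. Touching was not counted in other dense runs of peaks, and a run of 10 peaks elsewhere in the list was covered over 100% of its 393 bases. Touching is therefore not shown to be particular to Neat1. The longest Neat1 block, at 5843508 to 5843706 (199 bases), held 4 peaks, all at 4-fold or more, with log2 folds from 5′ to 3′ of 2.01, 2.2, 2.42 and 2.02. It was the only block in which every peak passed 4-fold.

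The other block of more than a pair lay at 5842966 to 5843154 (189 bases) and held 3 peaks. From 5′ to 3′ their log2 folds were 1.71, 2.14 and 2.43. In 7 of the 9 touching pairs of neighbours the 3′ member had the higher fold, and in 2 it had the lower one, with differences of 0.12 to 0.54. The direction was not counted for the 1834 touching pairs of the whole list, so these counts show no pattern particular to Neat1. Whether touching peaks are parts of 1 enriched region or separate neighbouring sites was not tested, so the number of peaks is not a count of bound sites. Where neighbours did not touch, 15 gaps of 2 to 259 bases separated them, with a median of 50 bases, and 4 gaps exceeded 100 bases.

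The Neat1 peaks were also wider than most. Their median width was 53 bases (3 to 113), against 32 bases in the list, and 14 of the 25 (56%) were at least 48 bases wide, against 23.9% of the list. The 48-base limit was not planned, and the Neat1 peak at 5842737 to 5842784 was exactly that wide. The narrowest Neat1 peak, at 5842475 to 5842477, was 3 bases wide. Widths were not compared with those in other dense runs of peaks.

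As a run of peaks, Neat1 was among those with the most peaks in the list. When peaks on 1 strand that start within 1000 bases of the previous end were joined into chains, all 25 Neat1 peaks formed 1 chain at 5842391 to 5844823, a span of 2.43 kb. Of the 31595 chains in the list, 8 held more peaks. Peaks covered 52.1% of the Neat1 chain, at 10.3 peaks per kb of its span. Among the 172 chains of 10 or more peaks, the median chain was 22.2% covered at 5.3 peaks per kb. Of these, 23 were more covered than Neat1 and 15 had more peaks per kb, while 114 had a higher median fold. Chains of fewer than 10 peaks were not ranked by coverage or by peaks per kb. Peaks per kb depend on how enriched regions are divided, and the ranking was not repeated with merged peaks. Neat1 was chosen as a member with its peaks known, so its place in these orders is a description.

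The 2 chains most like it in span among the 8 with more peaks were both on chromosome 1. One, on the plus strand at 88423514 to 88425212, held 31 peaks in 1.7 kb, covered 64.7% of its span and had a median log2 fold of 2.51. The other, on the minus strand at 64781393 to 64784251, held 28 peaks in 2.86 kb, covered 48.5% and had a median of 2.17. Neat1, with a median of 1.65, was packed about as densely as the latter, and its median fold was below that of either.

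**Figure D4:**
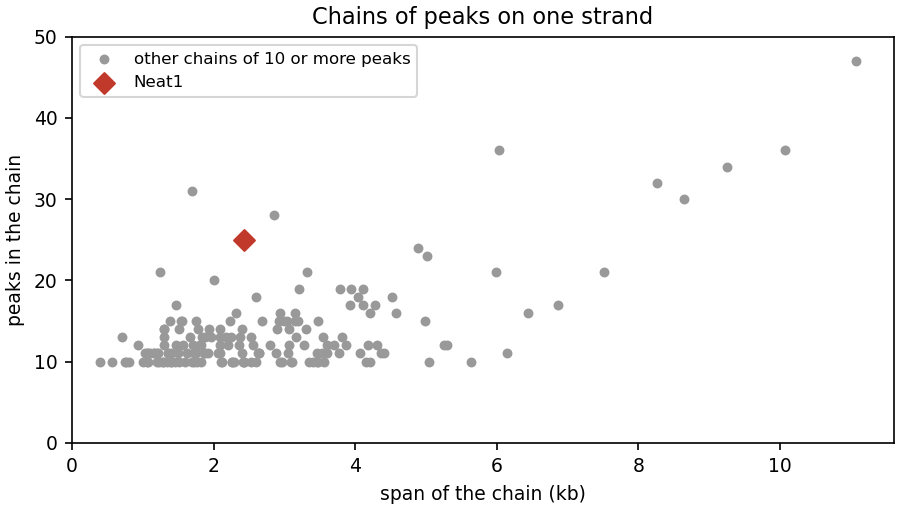
Number of peaks against span in kb for the 172 chains of 10 or more peaks; each point is a chain and the diamond is Neat1. Neat1 has 25 peaks in 2.43 kb, and 8 chains lie above it.

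The Neat1 peaks also stood apart from most of the list in the whole numbers behind their folds, a difference that was not tested. Every fold in the list equalled a ratio of 2 whole numbers after subtraction of 1 constant, 0.24 on the log2 scale (denominators up to 2000, tolerance 1.5e-09). This form was read from the values and is stated in no source used here. The constant was set by taking the commonest fold in the list as a ratio of 2 to 1. Another choice of that ratio would give another constant and other whole numbers, so the numbers below hold for this constant only. If the constant is right and the numbers are read counts, the smallest whole numbers that give a fold are the fewest reads it can rest on. The true counts may be any multiple of them. In Neat1 the smallest number on the input side was between 13 and 205, with a median of 68, whereas the list's median was 4. An input number of 10 or less was found for 0 of the 25 Neat1 peaks, beside 75.6% of the list. Neat1 was not alone in this among chains. Of the 172 chains of 10 or more peaks, 8, Neat1 included, held no input number below 13. In 162 of the 172, the lowest input number was 10 or less.

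On the IP side the smallest number in Neat1 was between 36 and 671, with a median of 190, against 12 in the list. The widest peak, at 5844463 to 5844575, gave 671 to 188, the one at 5844165 to 5844238 gave 567 to 205, and the one at 5843508 to 5843582 gave 535 to 156. Of the 47777 listed peaks, 26 had an IP number over 500, these 3 of the 25 Neat1 peaks included. An input number over 100 was found for 6 Neat1 peaks (24%) and for 178 peaks of the list (0.373%). The peak with the highest Neat1 fold, at 5842966 to 5843024, gave 311 to 68, and the 5′-most peak gave 67 to 38. The folds of Neat1 thus had larger numbers on both sides than most of the list. Neither an interval nor a test was made from these numbers.

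**Figure D5:**
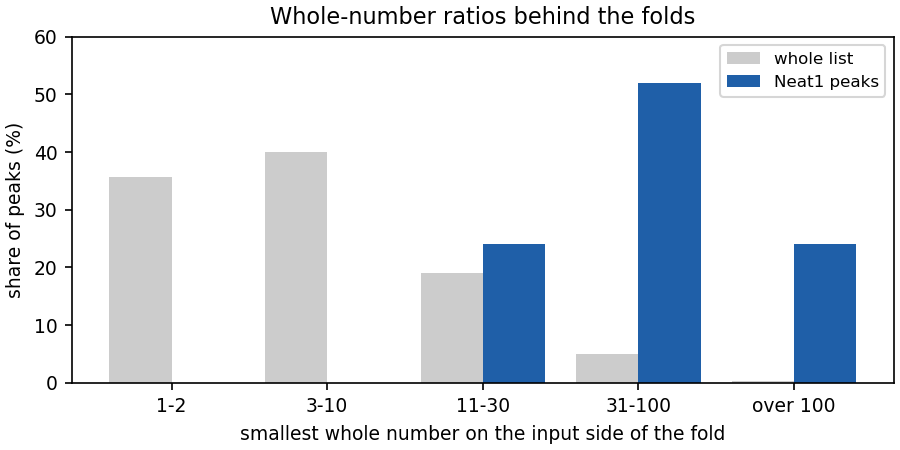
Share of peaks (%) by the smallest whole number on the input side of the fold, for the 25 Neat1 peaks and for the list. Numbers of 10 or less make up 75.6% of the list, and 0 of the Neat1 peaks are there; 52% of the Neat1 peaks are between 31 and 100.

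The 4 minus-strand peaks in the 20 kb beyond the 5′ side of Neat1 had smaller numbers on the IP side than any Neat1 peak, whose lowest was 36. The nearest of them, at 5852293 to 5852351, gave 23 to 13, so its input number equalled the lowest in Neat1. The one at 5861002 to 5861059, whose log2 fold of 2.9 exceeded that of every Neat1 peak, gave 19 to 3, and the remaining 2 gave 5 to 2 each.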

How the data were processed

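The data were 1 deposited list of peaks for 4 eCLIP libraries (2 IP, 2 input). The submitters' processing notes name the build mm9, STAR 2.6.1b and cutadapt 1.18. How peaks were called and filtered, and whether replicates were pooled, is not given in the sources used here. For every peak the authors deposited 1 log2 value of IP against input; that scale was inferred from the values, as the list has no header. Positions were changed to count from 1. Members were taken by midpoint and strand. The members, windows and quantities were chosen with earlier results of these data known, and peaks were named by their fold or their place at an end; the neighbouring peaks, the weak peaks among the stronger ones, the touching blocks, the widest peak, those with the largest whole numbers and the 2 chains on chromosome 1 were chosen after their values were seen. No mm9 annotation was used here, so other genes of the paraspeckle were not analysed, and GENCODE M21 gave transcript sequences and lengths only. With no values per library, no test over samples was made, and depth per sample is unknown. Constants shifted by 0.01 or 0.02 either way gave whole-number ratios (denominators up to 250) for 0 of the 25 Neat1 peaks, against 25 with the constant used. Such shifts do not test constants that differ from it by the log2 of a simple ratio, which would also give whole-number ratios. The code for chains and ratios was run on simulated data with a known constant, well-spaced chains and input numbers below 250. That run checks the code only, not the choice of constant or of joining distance. Alternatives were other limits on fold and width, merging within 50 bases, assignment by overlap and other boundaries. Python 3.11.15, numpy 2.4.6, pandas 2.3.3 and matplotlib 3.10.9 were used.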

Additional observations from a re-analysis of the deposited data

How the results depend on the processing

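Of 32 alternative values, 25 stayed within 1.5 times the value reported (counts and densities) or within its 95% interval (median and share), and 7 did not. Of the 25, 10 were counts or densities of 0 under settings that can only remove or join peaks or narrow the part compared, so they say nothing about stability. Assignment by overlap changed no Neat1 or Malat1 value, but it could not have changed any, so those values say nothing about stability either. From the Neat1 peaks, the nearest other peaks were 5.7 and 86.8 kb away, and the 5′-most Neat1 peak ended 1177 bases before the window's edge. The 20 kb on either side of the Malat1 window held none, and the widest listed peak was 275 bases. Keeping only peaks at 4-fold or more left 8 Neat1 peaks (0.364 per kb of the 22 kb window, against 1.14) with a median log2 fold of 2.17. Merging peaks within 50 bases also left 8 (0.364 per kb), so the count of 25 depends on how enriched regions are divided. The 4-fold share after merging was 50%, beside 32%, and still lay within the wide interval of 17.2 to 51.6%. That interval and the one for the median treat the 25 peaks as independent, although 15 touched a neighbour. Each density is a count divided by a fixed window length, so a count and its density are not separate values. The share at a log2 fold of at least 3 in place of 2 was 0%. With the boundary of the 5′ part moved by 1 kb toward the 5′ end, 4 peaks fell in the rest of Neat1 and 21 in the 5′ part, which gave a density ratio of 33.2 and a difference in median log2 fold of 0.19; that boundary runs through the chain. Moved by 1 kb the other way, the rest still held 0, and no ratio or difference could be given there or under the other settings. Joining at 200 or 10000 bases, settings chosen after seeing the data, gave chains of 23 and 32 peaks. No paired analysis was possible because the list gives nothing per library; leaving out a replicate was not possible either.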

Other observations

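The authors numbered the peaks within each chromosome and strand in an order that no source used here explains. On the minus strand of chromosome 19, the first 7 of 623 numbers all belonged to Neat1 peaks, and 24 of the 25 Neat1 peaks were among the first 100 of these 623. The places of other dense runs of peaks in this order were not looked at. The order did not follow the fold, since the first peak had a log2 fold of 2.08 and the fold of the sixth was 2.43.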
